A study of Mus musculus with 12 samples.

Results

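The 7 genes described here are markers of enteric glia, the supporting cells of the nervous system of the gut: S100b, Sox10, Gfap, Ngfr, Cdh19, Foxd3 and Erbb3. They were taken by gene symbol from a table of 35275 genes, in which each of the 7 symbols matched 1 gene. The tissue was ileum, the end of the small intestine, of C57BL/6 mouse pups on postnatal day 14. Between gestational days 7 and 19 the 3 stressed dams had spent 2 h of each day restrained in a ventilated tube, while 3 control dams had stayed in their home cages. One male and one female pup of each dam gave 1 library of total RNA each, which makes 3 stressed males, 3 control males, 3 stressed females and 3 control females. The word stressed refers to the dam, and the number of a pup is that of its dam. The ileum was sequenced as whole tissue. The design asks whether gene expression in the pups' ileum differs with restraint of their dam.

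Enteric glia surround the nerve cells of the myenteric and submucosal ganglia, follow nerve fibres into the muscle layers and reach up into the mucosa below the epithelium. They descend from the neural crest, as enteric neurons do, and the transcription factor SOX10 is kept on in the glial branch and lost in the neuronal one. Sox10 and Foxd3 encode transcription factors of neural crest cells and glia. S100b encodes a calcium-binding protein and Gfap an intermediate filament protein, the usual stains for these cells. Ngfr encodes the low-affinity neurotrophin receptor p75, Erbb3 the neuregulin receptor that Schwann cell precursors depend on, and Cdh19 a cadherin of the Schwann cell lineage. Erbb3 is also made by intestinal epithelial cells.

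Promoter sequences were read for the 4 of 7 genes held in the RefSeq table of build GRCm38.p6. They are shown because these genes include Foxd3, the marker with the smallest p of the 7 by stress in males and over litters, and one of those that varied with the other genes of the gut wall, Ngfr. Each line gives the 250 bases before the start of transcription in RefSeq, 5′ to 3′ on the strand of the gene, with matches to the E-box letters CANNTG and to the GC-box letters GGGCGG, on either strand, in capitals.
S100b (chr10:76253586-76253835, plus strand): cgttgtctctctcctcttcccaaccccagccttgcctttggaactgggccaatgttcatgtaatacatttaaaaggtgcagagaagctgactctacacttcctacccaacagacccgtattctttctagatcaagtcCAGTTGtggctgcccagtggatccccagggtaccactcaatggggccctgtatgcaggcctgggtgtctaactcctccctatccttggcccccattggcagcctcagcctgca
Gfap (chr11:102897201-102897450, minus strand): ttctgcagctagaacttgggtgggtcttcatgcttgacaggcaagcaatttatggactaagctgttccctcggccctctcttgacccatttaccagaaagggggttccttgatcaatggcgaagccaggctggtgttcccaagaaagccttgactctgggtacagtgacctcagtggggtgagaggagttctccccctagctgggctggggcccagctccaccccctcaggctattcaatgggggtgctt
Ngfr (chr11:95587699-95587948, minus strand): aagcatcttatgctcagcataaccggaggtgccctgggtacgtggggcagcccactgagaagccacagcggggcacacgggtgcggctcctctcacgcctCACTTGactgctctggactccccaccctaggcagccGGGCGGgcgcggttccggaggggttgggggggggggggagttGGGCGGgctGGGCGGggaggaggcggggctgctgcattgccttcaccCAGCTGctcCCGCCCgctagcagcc
Foxd3 (chr4:99656049-99656298, plus strand): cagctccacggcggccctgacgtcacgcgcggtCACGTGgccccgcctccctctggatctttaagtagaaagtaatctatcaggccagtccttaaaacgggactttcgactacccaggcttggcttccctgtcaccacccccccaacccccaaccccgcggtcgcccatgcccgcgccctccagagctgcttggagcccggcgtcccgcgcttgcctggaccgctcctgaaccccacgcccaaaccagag
The window of Ngfr held 4 GC boxes and 2 E-boxes, those of S100b and Foxd3 1 E-box each, and that of Gfap neither. Among 32851 promoter windows of the same length 66.2% held an E-box and 32.7% a GC box. The letters ACAAAG and ACAATG, forms of the core that SOX proteins bind, were in none of the 4 windows and in 16.5% and 10.7% of all windows. Other forms of this core were not searched, so the windows may still hold such sites. CG pairs numbered 16 in Ngfr and 21 in Foxd3, but 2 each in S100b and Gfap, against a median of 6 over all windows. The RefSeq starts of Gfap and Ngfr lie inside the spans that the deposited table gives for these genes, so that the window of Gfap and part of that of Ngfr do too. These matches describe letters only.

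Library totals ran from 16423523 to 22975526 counts. In earlier results of these data some libraries stood apart. Both pups of control dam 3 were rich in genes of the upper small intestine: Fabp1 reached 1400 CPM (counts scaled to the library total, with TMM factors) in control male 3 and 168 CPM in its sister, and at most 0.638 CPM elsewhere. The noncoding RNA gene Yam1 took 1.39% of the counts of stressed male 1, 4.13% of those of stressed male 3 and 1% of those of control male 1, against at most 0.5% in the other libraries. Control males 1 and 2 lay at opposite ends in gut wall genes, with 8330 and 2980 CPM summed over 10 smooth muscle genes, against 3920 to 5630 CPM in the other 10 libraries. Replicates within a group differed beyond counting noise, with at least 8.17 for chi-square over its degrees of freedom, so no library was a copy of another of its group.

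All 7 markers were detected in each of the 12 libraries and passed the filter on low counts. Per length of gene Erbb3 was the highest, with 38.7 ± 7.08 FPKM (counts scaled by gene length and library total, SD over 12 libraries), a level above 88.2% of the genes tested. Ngfr followed with 5.25 ± 1.46 FPKM, S100b with 2.8 ± 0.798, Sox10 with 2.22 ± 0.632, Cdh19 with 0.837 ± 0.163, Foxd3 with 0.706 ± 0.262 and Gfap with 0.468 ± 0.161 FPKM. Erbb3 lay above Ngfr in 12 of 12 libraries with no overlap of their ranges, 29.8 to 53.5 FPKM for Erbb3 and 3.17 to 8.36 FPKM for Ngfr. Ngfr was above S100b in 12 of 12 libraries too, though their ranges overlapped. Sox10 was above Cdh19 with no overlap. The other neighbours overlapped and changed places: S100b was above Sox10 in 8 of 12 libraries, Cdh19 above Foxd3 in 9 and Foxd3 above Gfap in 10. Gfap and Foxd3 rested on few reads, 9 to 40 and 13 to 59 per library, for which counting alone gives a coefficient of variation of 19.8% and 17.2% at the mean count. The spread between pups of a group, pooled over the groups, was larger, 37.9% for Gfap and 30.2% for Foxd3. For Gfap it came mostly from control males (SD 0.879, mean 1.15 CPM). The other groups had SDs of 0.154 to 0.201 at means of 1.1 to 1.35 CPM, less than counting alone gives. Foxd3 also varied less than that in stressed females (SD 0.0846, mean 1.57 CPM). Its SD was larger in the other groups, 0.396 to 0.733 at means of 1.03 to 1.97 CPM. For Erbb3, with 3270 to 6394 reads, the pooled spread was 24.9% against 1.45% from counting.

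**Figure D1:**
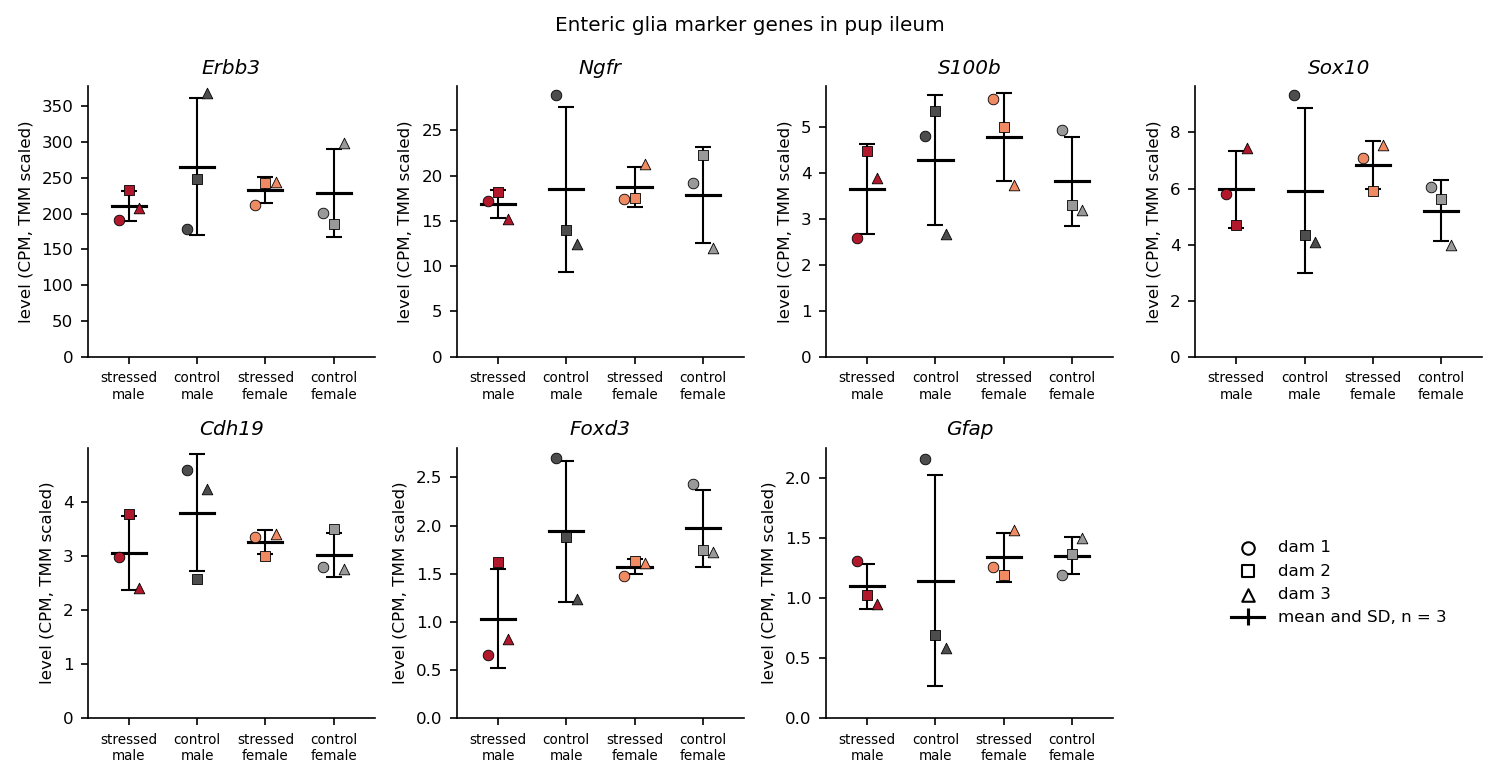
Level of each glia marker in CPM (TMM scaled) in 4 groups of 3 pups, with 1 point per library shaped by dam and bars for the mean and SD. Control male 1 was the highest library for Ngfr, Sox10, Gfap, Cdh19 and Foxd3, and control male 3 the highest for Erbb3.

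Foxd3 had the largest difference of the 7 markers between pups of stressed and control dams in males and over litters, with a lower mean in the stressed pups of both sexes, and did not pass the threshold. This gene (chromosome 4, 99656299 to 99658622, ENSMUSG00000067261) read 0.654, 1.62 and 0.826 CPM in stressed males 1, 2 and 3, and 2.7, 1.88 and 1.24 CPM in control males 1, 2 and 3. Values are given in this order of dams throughout. The groups overlapped, since stressed male 2 lay above control male 3. Among females the stressed pups had 1.48, 1.63 and 1.61 CPM, and the control pups 2.43, 1.75 and 1.73 CPM. Here all 3 stressed females lay below all 3 control females, with little room between the highest stressed and the lowest control pup. The log2 fold change was -0.90 ± 0.38 (SE, 95% interval -1.72 to -0.08) in males and -0.33 ± 0.36 (-1.11 to 0.46) in females. In edgeR's quasi-likelihood test the p was 0.0347 unadjusted and the adjusted p = 0.752 in males, and in females the p was 0.382 and the adjusted p = 1. With littermates summed Foxd3 stood at 1.33 ± 0.285 CPM in stressed litters and 1.97 ± 0.532 CPM in control litters (SD, n = 3 dams each), a log2 fold change of -0.57 ± 0.27 (edgeR, adjusted p = 1). The lowest values in males were those of stressed males 1 and 3, with 13 reads each, both from the libraries rich in Yam1. These 2 libraries also gave the lowest shares of counts to mitochondrial genes, 2.18% and 1.16%, against 3.01% to 4.59% in the other 10. Control male 1, also rich in Yam1, went the other way in both. It had the highest Foxd3 of all libraries, 2.7 CPM, and the highest mitochondrial share, 4.59%. Without the 3 Yam1-rich males the male log2 fold change turned to 0.04. That fit keeps 1 stressed male and takes its spread from the other groups. Without control males 1 and 2 it was -0.24, without control male 1 alone -0.59 and without stressed male 2 -1.42 (edgeR, adjusted p = 0.0975). The part that the Yam1-rich libraries and their mitochondrial share have in the result was not tested. In the authors' deposited table Foxd3 had a log2 fold change of -0.422 in males, with p = 0.0893, and of -0.343 over all pups, with p = 0.0299, and neither passed after adjustment. These changes are smaller than those of the fits here. The deposited headers do not say how they were estimated or whether littermates were joined. With littermates summed, so that the dam is the replicate, the unadjusted p of Foxd3 in edgeR was 0.0705.

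Sox10, the master regulator of the glial lineage (chromosome 15, 79154913 to 79164490, ENSMUSG00000033006), did not separate the groups. Among males the stressed pups had 5.79, 4.71 and 7.43 CPM, and the control pups 9.34, 4.35 and 4.1 CPM. Control male 1 was the highest and the other control males the lowest of the 6, so that the stressed males lay inside the control range. Stressed females had 7.08, 5.9 and 7.56 CPM, and control females 6.04, 5.62 and 3.98 CPM. Control female 1 lay above stressed female 2, so these groups overlapped as well. The log2 fold changes were 0.01 ± 0.32 (SE) in males and 0.39 ± 0.32 in females, with 95% intervals of -0.69 to 0.70 and -0.30 to 1.08 (edgeR, adjusted p = 0.997 in males and 1 in females). Over litters it was 0.21 ± 0.25, and 0.50 ± 0.20 without control dam 1 or 0.03 ± 0.21 without control dam 3 (edgeR, adjusted p = 0.638 and 1).

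S100b and Gfap, the proteins of the glial cytoplasm, did not differ beyond their spread. S100b (chromosome 10, 76253853 to 76261159, ENSMUSG00000033208) read 2.57, 4.47 and 3.88 CPM in the stressed males and 4.8, 5.34 and 2.67 CPM in the control males. Stressed females had 5.6, 4.98 and 3.73 CPM, and control females 4.93, 3.3 and 3.19 CPM. Both pairs of groups overlapped. The log2 fold changes were -0.24 ± 0.31 in males and 0.32 ± 0.31 in females (SE), with intervals of -0.93 to 0.45 and -0.35 to 1.00 (edgeR, adjusted p = 0.886 and 1), and the difference between them -0.56 ± 0.44 (edgeR, adjusted p = 0.999). Gfap (chromosome 11, 102887336 to 102900912, ENSMUSG00000020932), which glia raise in inflammation and injury, read 1.31, 1.03 and 0.953 CPM in the stressed males and 2.16, 0.692 and 0.585 CPM in the control males. Stressed females had 1.26, 1.19 and 1.57 CPM, and control females 1.19, 1.37 and 1.5 CPM, with overlap. The stressed males lay between the high control male 1 and the low control males 2 and 3. The log2 fold change of Gfap was -0.07 ± 0.44 in males and -0.02 ± 0.42 in females (edgeR, adjusted p = 0.985 and 1), with intervals of -1.02 to 0.89 and -0.92 to 0.89. In fold terms they run from 0.494 to 1.85 in males and from 0.527 to 1.86 in females. The male value depended on 1 library: without control male 1 it was 0.77 ± 0.31 (edgeR, adjusted p = 0.336).

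Ngfr, which encodes the p75 receptor (chromosome 11, 95568818 to 95587735, ENSMUSG00000000120), spanned a narrow range in stressed pups and a wide one in control pups. Stressed males had 17.2, 18.2 and 15.2 CPM, and control males 28.9, 14 and 12.5 CPM. Stressed females had 17.4, 17.5 and 21.3 CPM, and control females 19.2, 22.3 and 12 CPM. Stressed libraries lay within the control range in both sexes. Over litters the level was 17.9 ± 0.844 CPM in stressed and 18.1 ± 5.68 CPM in control litters (SD, n = 3 dams each), where the lowest was control dam 3 and the highest control dam 1. Other markers also spread less in stressed than in control pups. The SD over 6 pups was 21.3 against 74.5 CPM for Erbb3, 1.13 against 2.03 for Sox10 and 0.218 against 0.576 for Gfap. For S100b it was similar, 1.06 against 1.12 CPM. The difference in spread was not tested. The log2 fold change was -0.13 ± 0.30 in males, 0.07 ± 0.30 in females and -0.01 ± 0.22 over litters (SE; 95% interval over litters -0.53 to 0.50; edgeR, adjusted p = 0.938, 1 and 1). Without control male 1 the male value was 0.34 ± 0.23 (edgeR, adjusted p = 0.483).

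Erbb3, the neuregulin receptor (chromosome 10, 128567523 to 128589652, ENSMUSG00000018166), read 191, 233 and 208 CPM in the stressed males and 179, 248 and 368 CPM in the control males. Stressed females had 212, 243 and 244 CPM, and control females 201, 186 and 299 CPM. The groups overlapped in both sexes. The highest 2 values were those of control dam 3, whose pups were rich in genes of the upper small intestine. The log2 fold change was -0.33 ± 0.25 in males, and -0.02 ± 0.22 without control male 3, and 0.02 ± 0.25 in females (SE; edgeR, adjusted p = 0.787, 0.984 and 1). Over litters it was -0.15 ± 0.20, and it turned to 0.11 without control dam 3. Without control males 1 and 2, which leaves control male 3 alone in its group, the male value was -0.80 (edgeR, adjusted p = 0.112). Cdh19, the cadherin (chromosome 1, 110888326 to 110977584, ENSMUSG00000047216), read 2.97, 3.78 and 2.41 CPM in the stressed males and 4.59, 2.57 and 4.23 CPM in the control males. Stressed females had 3.34, 3 and 3.41 CPM, and control females 2.8, 3.49 and 2.76 CPM. Both pairs of groups overlapped, with log2 fold changes of -0.31 ± 0.26 in males and 0.11 ± 0.26 in females (SE; edgeR, adjusted p = 0.809 and 1).

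**Figure D2:**
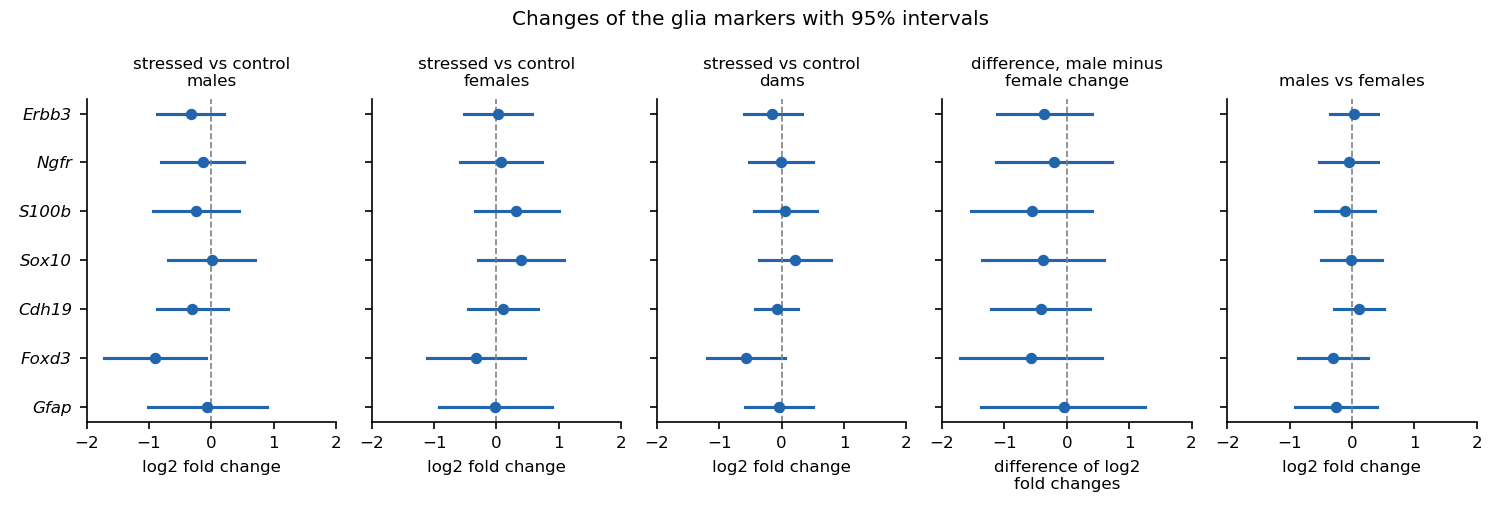
log2 fold change of each marker with its 95% interval (line) for stressed over control pups of each sex and stressed over control litters (dams), for the male minus the female change, and for males over females. The interval of Foxd3 in males, -1.72 to -0.08, is the single one that leaves out 0, before any adjustment for the number of genes.

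Counted together, 0 of 7 markers passed the adjusted threshold of 0.05 in males, in females or over litters in edgeR, where 0% of all genes tested did. DESeq2 and limma-voom also called 0 of 7 in each. At an unadjusted p under 0.05 there was 1 of 7 in males, Foxd3, in all 3 tools, against 6.38% of all genes in edgeR. In females there were 0 of 7, against 0.298%, and over litters 0 of 7, against 1.36%. Groups without overlap were 0 of 7 in males, where 2.95% of all genes were lower and 2.72% higher without overlap. In females there was 1 of 7, Foxd3, where 2.49% were lower and 3.07% higher, and over litters 0 of 7, where 3.18% were lower and 2.53% higher. The median log2 fold change of the 7 was -0.24 in males, with 6 of 7 below 0, beside 0.01 over all genes tested. In females it was 0.07, with 2 of 7 below 0, and over litters -0.04, with 5 of 7 below 0, beside 0.00 over all genes in both. Of all genes tested 51.7% were above 0 in males, 48.5% in females and 51.3% over litters. The male changes of S100b, Gfap, Ngfr, Cdh19 and Foxd3 lay above 0 without the 3 Yam1-rich males. Levels in whole tissue are relative to all other RNA, so a lower one need not mean fewer glial cells or less of the RNA in each. What lies behind it cannot be told apart here, and Erbb3 is also made by epithelial cells.

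The change by stress in males minus that in females was below 0 for 7 of 7 markers, from -0.58 ± 0.52 for Foxd3 to -0.05 ± 0.60 for Gfap (SE), with a median of -0.38 beside 0.00 over all genes. Over all genes tested 50% were above 0. Lists of other genes went either way. Below 0 were 6 of 6 lymphoid and stromal and 12 of 15 enteric neuron genes, and above 0 were 6 of 6 genes of interstitial cells of Cajal and related cells. None of the 7 markers passed in edgeR, DESeq2 or limma-voom, and 0 of 7 had an unadjusted p under 0.05 in each, against 2.15% of all genes in edgeR. The fits given in this paragraph did not pair littermates. The sign of the difference turned without control male 1 in Gfap (0.79), Ngfr (0.27) and Sox10 (0.10). Between the sexes, males against females, the log2 fold changes ran from -0.31 ± 0.26 for Foxd3 to 0.12 ± 0.18 for Cdh19, and 0 of 7 passed in the 3 tools or had an unadjusted p under 0.05, against 12% of all genes in edgeR and 0.0497% after adjustment. Gfap ran from 0.585 to 2.16 CPM in males, median 0.992, and from 1.19 to 1.57 CPM in females, median 1.31. The female range lay within the male range, and none of the 7 markers separated the sexes, where 0.143% of all genes were lower and 0.112% higher in males without overlap. Its log2 fold change was -0.25 ± 0.30 (95% interval -0.91 to 0.40; edgeR, adjusted p = 0.693).

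**Figure D3:**
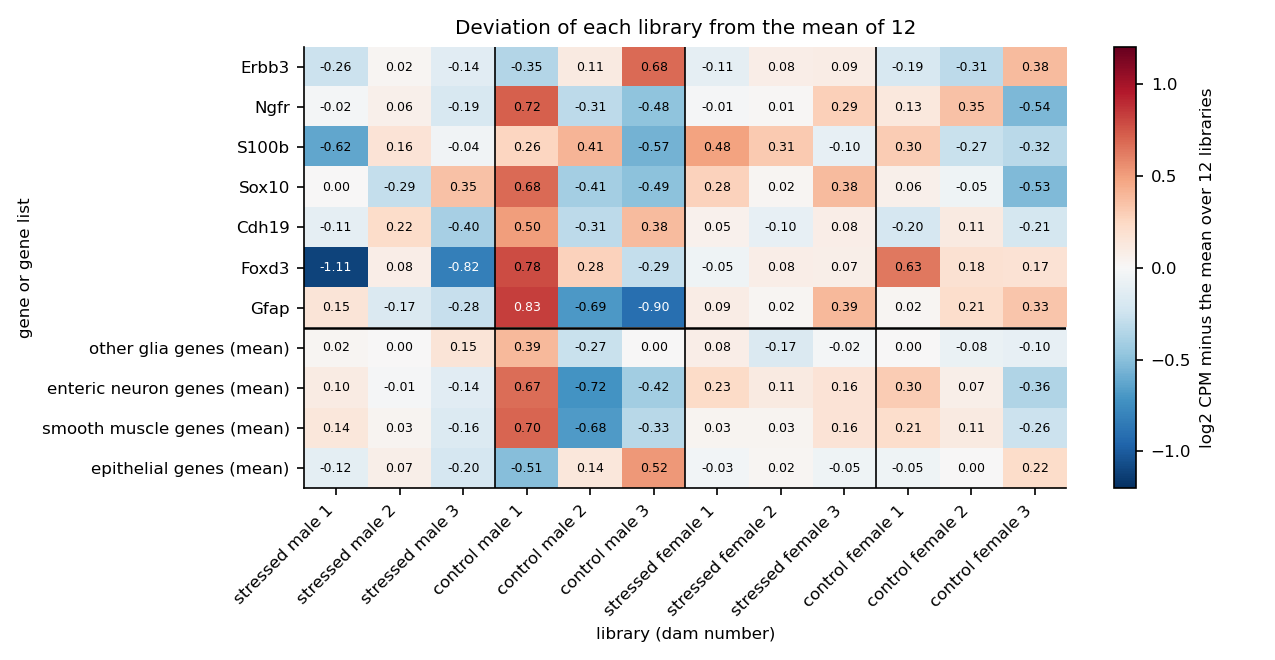
log2 CPM of each marker, and the mean over 4 lists of other genes, in each library minus the mean of 12 libraries. Control male 1 was high (0.50 to 0.83) in the markers other than S100b (0.26) and Erbb3 (-0.35), and control male 2 and both pups of control dam 3 were low in Ngfr and Sox10.

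The markers did not vary as 1 block among the 12 libraries. Over the 21 pairs of markers 15 correlations of log2 CPM were positive and 6 negative. The closest pair was Sox10 with Ngfr, with Pearson's r = 0.77 (permutation p = 0.0032, adjusted over 21 pairs 0.0458) and Spearman's rho = 0.65 (permutation p = 0.0253, adjusted 0.265). It was r = 0.53 without the 2 libraries farthest from the median of Sox10, r = 0.65 without control male 1, r = 0.79 within the 6 males and r = 0.75 within the 6 females. Ngfr and Erbb3 ran against each other, with r = -0.76 (permutation p = 0.00436, adjusted 0.0458) and rho = -0.69 (permutation p = 0.0152, adjusted 0.265), r = -0.67 without the 2 libraries farthest in Ngfr, -0.73 without control male 1, -0.75 within males and -0.79 within females. By rho none of the 21 pairs passed after adjustment. Gfap with Ngfr reached r = 0.70 and rho = 0.55 (permutation p = 0.0111 and 0.068, adjusted 0.0584 and 0.334), but it rested on the males, with r = 0.96 within males and -0.12 within females, and was 0.34 without the 2 farthest libraries and 0.54 without control male 1. S100b, a usual stain of these cells, had r = 0.34 with Sox10 and 0.10 with Gfap. Littermates share a dam, so the 12 libraries are not fully independent and these p-values may be too small. All libraries also share the composition of the gut wall. Covariation had been planned as a description without a test, and the permutation tests were added to it. Each of the permutation tests was two-sided and used 100000 resamples.

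**Figure D4:**
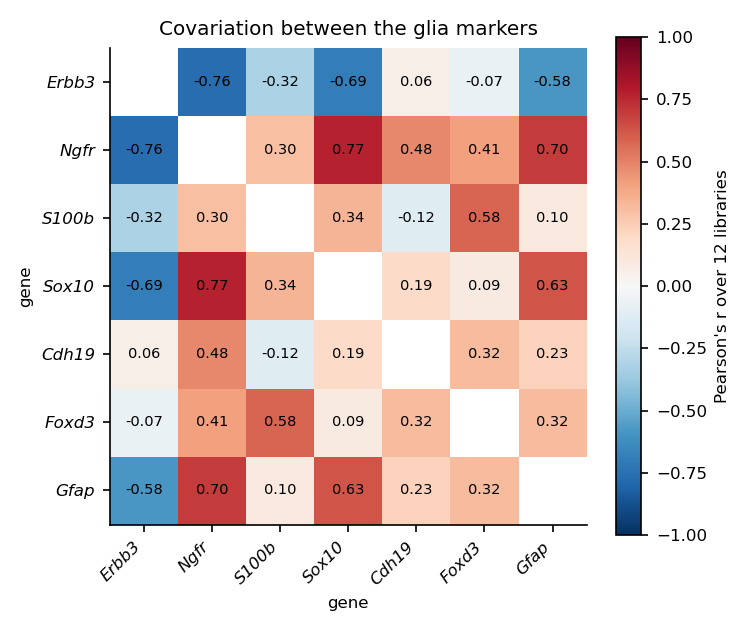
Pearson's r of log2 CPM over 12 libraries for each pair of markers, with the genes in order of FPKM. Erbb3 is negative with 5 of the 6 others, and Ngfr, Sox10 and Gfap are positive with each other (0.63 to 0.77).

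The levels of Ngfr, Sox10 and Gfap went with those of other genes of the gut wall, given here as a description over 12 libraries that share their composition. Against the mean of 15 enteric neuron genes r was 0.86 for Ngfr, 0.81 for Sox10, 0.77 for Gfap, 0.44 for Cdh19, 0.28 for Foxd3 and 0.25 for S100b. Against 10 smooth muscle genes r was 0.87 for Ngfr, 0.75 for Sox10, 0.81 for Gfap, 0.52 for Cdh19, 0.28 for Foxd3 and 0.10 for S100b. Erbb3 ran the other way, with r = -0.68 against the neuron genes and 0.87 against 9 epithelial genes. Against these epithelial genes r was -0.87 for Sox10, -0.78 for Ngfr, -0.72 for Gfap, -0.36 for S100b, -0.14 for Foxd3 and -0.05 for Cdh19. Control male 1 was the highest library in both the neuron and the muscle genes. Without it r against the neuron genes was 0.78 for Ngfr, 0.71 for Sox10, 0.67 for Gfap, 0.16 for Cdh19, 0.02 for Foxd3 and 0.15 for S100b. Against the muscle genes it was then 0.78 for Ngfr, 0.62 for Sox10 and 0.71 for Gfap. Without control males 1 and 2 r against the neuron genes was 0.84 for Ngfr, 0.70 for Sox10 and 0.52 for Gfap, but -0.15 for Cdh19 and 0.61 for S100b. Without both pups of control dam 3 r of Erbb3 against the epithelial genes was 0.67. The epithelial genes summed to 6810 to 7840 CPM in stressed males, 6020 to 9950 in control males, 7580 to 7670 in stressed females and 7370 to 8650 in control females. The enteric neuron genes summed to 377 to 507 CPM in stressed males, 310 to 611 in control males, 410 to 421 in stressed females and 324 to 437 in control females, and none of the 15 was at 0 in any library. In males, where 6 of 7 markers had a log2 fold change below 0, 8 of 9 epithelial genes did, with a median of -0.17, while 6 of 6 genes of interstitial cells of Cajal and related cells were above 0, with a median of 0.30 and 3 at an unadjusted p under 0.05, beside 51.7% above 0 and 6.38% at that p over all genes. For smooth muscle the median was -0.01, for 7 fibroblast genes 0.27 and for 6 lymphoid and stromal genes -0.05, and none of these genes passed in edgeR. The part of neuronal, muscular and epithelial content in the levels of the markers was not tested.

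**Figure D5:**
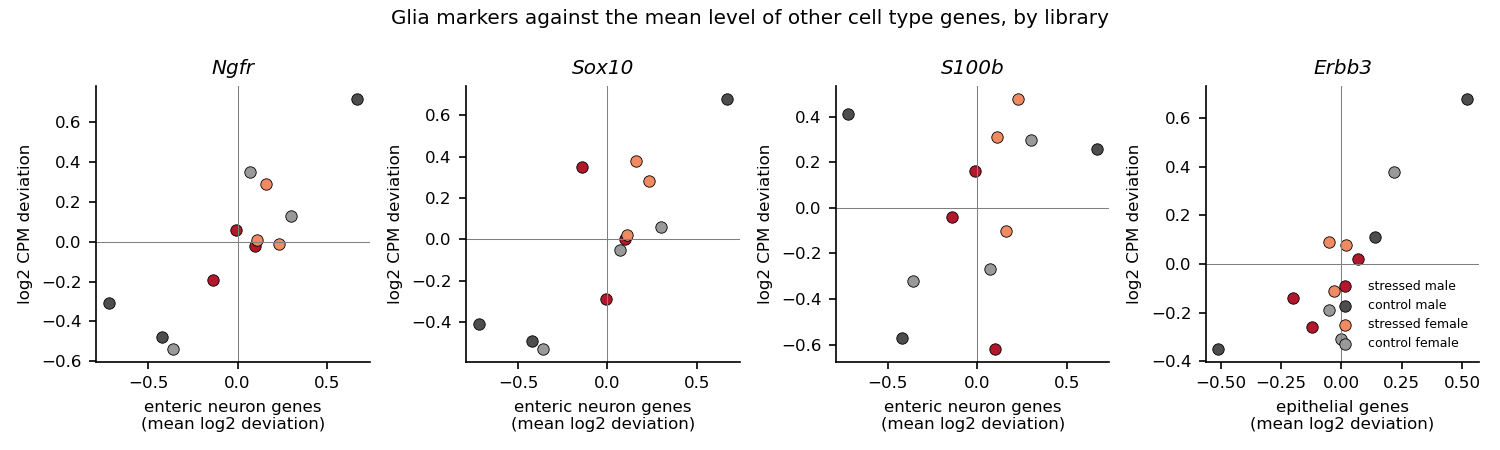
log2 CPM deviation of Ngfr, Sox10 and S100b against the mean deviation of 15 enteric neuron genes, and of Erbb3 against that of 9 epithelial genes, with 1 point per library coloured by group. The points rise from left to right for Ngfr (r = 0.86), Sox10 (0.81) and Erbb3 (0.87), and are scattered for S100b (0.25).

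Among 13461 other named genes with a mean of at least 1 CPM, those whose log2 CPM was most like the mean of the 7 markers over 12 libraries were Sqstm1, Trp53i11 and Kcnh2, each with r = 0.92. They were followed by Pdlim7 and Plekhb1 at 0.90, and by Dbh, Mustn1, Nmnat2, Foxf1 and Npr2 at 0.89. Chosen for this likeness, they carry no test. Within females the likeness was 0.96 for Kcnh2 but 0.28 for Dbh. Without control male 1 the likeness of these 10 genes ranged from 0.81 for Plekhb1 to 0.91 for Kcnh2. The mean of 12 further glial genes had r = 0.48 with the mean of the 7 markers, and -0.11 without control male 1. Among the lists r over 12 libraries was highest for 8 neurotrophin genes, 0.76, followed by the enteric neuron genes, 0.75, and the smooth muscle genes, 0.74. Leaving out control male 1 gave 0.73, 0.6 and 0.51 for these lists, and 0.77 for 9 myelin and Schwann cell genes.

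Other genes of glia were listed with the earlier results known, and none of them passed in any comparison in edgeR. Of 13 further glial genes 12 were tested in males, 7 of them below 0, with a median log2 fold change of -0.07. Over litters 8 of 13 were below 0, with a median of -0.04. Per length, Cryab, a small heat shock protein, stood at 17.5 FPKM over 12 libraries, Entpd2, an ectonucleotidase, at 11.3 FPKM and Gpm6b, a membrane proteolipid, at 4.07 FPKM. Col28a1, a collagen of glia and nerves, was lower in every stressed than in every control litter, with a log2 fold change of -0.32 ± 0.14 (edgeR, adjusted p = 1), as 3.18% of all genes were. Sox2, also a glial transcription factor, was left out of the test of pups for its low counts, with a mean of 0.315 CPM. Of 10 myelin and Schwann cell genes 9 were tested in males, 5 above 0, with a median of 0.18. Mbp, which encodes myelin basic protein, stood at 13.1 FPKM.

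RNA of the neuregulin, EGF and neurotrophin families and of their receptors was measured as well. Of 14 genes of the neuregulin and EGF families and their receptors 13 were tested, 7 above and 6 below 0 in males, with a median of 0.00. Nrg1, Nrg2 and Nrg4, which encode neuregulins, stood at 1.5, 1.02 and 1.56 FPKM, and Erbb2, the partner with which ERBB3 forms an active receptor, at 23.7 FPKM, whereas Erbb4 was at 0 counts in 9 of 12 libraries. Areg, which encodes the EGF receptor ligand amphiregulin, had 1.49 ± 0.758 CPM in the stressed and 3.2 ± 1.86 CPM in the control males (SD). Its log2 fold change was -1.07 ± 0.50 in males and -0.82 ± 0.35 over litters (SE; edgeR, adjusted p = 0.752 and 1), and over litters it was the 1 gene of 13 with an unadjusted p under 0.05, beside 1.36% of all genes. Of 9 neurotrophin genes 8 were tested, 4 above 0 in males, with a median of 0.00. Bdnf, which encodes a ligand of p75, stood at 0.348 FPKM, and Ntrk2 and Ntrk3, the kinase receptors for BDNF and neurotrophin-3, at 1.99 and 1.5 FPKM. Ntrk3 had 6.12 ± 1.5 CPM in the stressed and 4.07 ± 1.71 CPM in the control males (SD), a log2 fold change of 0.58 ± 0.33 (SE; edgeR, adjusted p = 0.756).

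Regulators of the neural crest, neurons and genes that glia raise when activated gave no call either. Of 10 regulators 8 were tested, 7 of them above 0 in males with a median of 0.18, and 7 above 0 over litters with a median of 0.10. Among all genes 51.7% and 51.3% were above 0 in these comparisons. Edn3, the ligand of the endothelin receptor that neural crest cells need to populate the gut, was higher in every stressed than in every control litter, with a log2 fold change of 0.25 ± 0.13 (edgeR, adjusted p = 1), as 2.53% of all genes were. Pax3 was at 0 counts in 12 of 12 libraries. Of 15 enteric neuron genes 8 were above 0 in males, with a median of 0.02, 12 in females, with 0.19, and 13 over litters, with 0.12, against 51.3% of all genes over litters. Of 10 genes of activated glia 9 were tested, 6 above 0 in males and 6 in females, with a median of 0.08 in both. The shares above 0 over all genes were 51.7% in males and 48.5% in females. Vim and Nes, which encode intermediate filament proteins, stood at 108 and 30.5 FPKM. The tissue was sequenced whole, so these levels are not those of glia alone. The mean of the 9 genes had r = 0.15 with the mean of the 7 markers over 12 libraries, and 0.63 without control male 1.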

How the data were processed

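The deposited table holds raw counts of reads per gene for 12 ileum libraries, and the deposited FPKM table the same genes divided by gene length and library total: 240813 of 240813 nonzero values matched within 1e-06. The authors' table of comparisons gives log2 changes with their p-values, raw and adjusted, per the file headers. Named in the submitters' processing notes are the builds GRCm38 and mm10 and the tools HTSeq 0.6.1, STAR 2.5, TopHat, edgeR 3.16.5 and DESeq2; strandedness and annotation release are not given in the sources used here.

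edgeR 4.0.16 under R 4.3.3 fitted the counts (TMM, quasi-likelihood test, filterByExpr, Benjamini-Hochberg over 16102 genes), with the 4 groups in 1 fit. To compare dams, counts of the pups of a litter were added, which makes the dam the replicate (16749 genes). Standard errors are the log2 fold change over the root of F. DESeq2 1.42.0, limma 3.58.1, other filters, scalings and left-out libraries were alternatives. Deviations are log2 CPM with a prior count of 2. By the labels pups with the same dam are littermates, which pairs them where sexes are compared. The reported fits left this pairing out, and litter as a block was an alternative. Deviations of littermates from the group means correlated by -0.36 to 0.54. Between stressed and control dams the numbers are names only (-0.33 to 0.31). Fits were tested on simulated counts with known changes. The simulation held no outlying libraries and no likeness of littermates, so it does not cover these features of the data.

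The named genes were the 7 markers and, from each other list, the 3 of highest mean CPM, any called gene and the 2 of smallest p in males and over litters. Some are not reported here or not described one by one, and further genes are named for their known role. The members, lists and alternatives were chosen with earlier results of these data known.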

Additional observations from a re-analysis of the deposited data

How the results depend on the processing

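No marker was called under any of the alternatives in any comparison. Of 763 values of the 7 markers under the alternatives 665 kept their sign and 98 changed it, 24 of these by more than 1 standard error. The filters, scalings and the replicate block (dam number, or litter where sexes are compared) changed no call of a marker. With dam number as block the male log2 fold change of Foxd3 was -0.90 and 0 genes were called by stress. Dam numbers do not link stressed to control dams, so for stress this block checks nothing in the design. With litter as block 6 genes were called between males and females, against 8 without it.

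Male changes by stress (log2) that turned to the other sign without the 3 males rich in Yam1 were S100b (0.15), Gfap (0.68), Ngfr (0.45), Cdh19 (0.16), Foxd3 (0.04), Entpd2 (0.18), Sox6 (-0.21), Egfr (-0.21), Ntf3 (0.05) and Ret (-0.08). Without control males 1 and 2 they were S100b (0.45), Gfap (0.91) and Ngfr (0.43). The male minus the female change by stress turned without the Yam1-rich males in Gfap (0.69), Ngfr (0.38), Cdh19 (0.06) and Foxd3 (0.37), and without control males 1 and 2 in S100b (0.12), Sox10 (0.15), Gfap (0.92), Ngfr (0.36) and Foxd3 (0.08). The cause was not tested.

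With each library left out in turn the male log2 fold change ran from -0.36 to 0.77 in Gfap, from -0.35 to 0.34 in Ngfr and from -1.42 to -0.59 in Foxd3, with the largest shifts without control male 1 or stressed male 2. The male minus the female change by stress ran from -0.59 to 0.10 in Sox10, from -0.35 to 0.79 in Gfap and from -0.42 to 0.27 in Ngfr. With each dam left out the change over litters ran from -0.23 to 0.22 in Ngfr and from -0.30 to 0.11 in Erbb3. Over litters Sox6 ran from -0.01 to 0.20 and Bdnf from -0.07 to 0.42, the sign of both turning without stressed dam 3. The cause was not tested.

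The count of genes called over the whole table was 599 in males, 56 for the male minus the female change and 184 for males against females without control males 1 and 2, where 1 control male is assumed to vary like the other groups; none of the 7 markers was among them. For males against females it was 18 with DESeq2 and 5 without the Yam1-rich males. With each library left out in turn it ran from 0 to 1 in males and from 8 to 1384 for males against females, the highest without stressed male 2. The correlations of the markers with other lists without control male 1, control males 1 and 2, the pups of control dam 3 or the Yam1-rich males were chosen after seeing the data. Depth limits Foxd3 and Gfap most, with as few as 13 and 9 reads in a library.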
